A study of Saccharomyces cerevisiae with 12 samples.

Results

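Transcript levels of wild-type budding yeast (Saccharomyces cerevisiae) growing on glucose were taken from the 6 wild-type arrays of a study of 12. The study asked how Euc1, a protein that marks chromosomal sites rich in ubiquitin, bears on transcription. Its experiment A set wild type beside a strain without EUC1, and its experiment B set wild type beside a strain with a lysine exchanged in Euc1. Each experiment had 3 wild-type arrays of its own, described in the series as biological triplicates, and the mutant arrays were not used here. Both wild-type groups carry the same strain name, Y0003, and no other treatment is given for either. No source used here gives the mating type or marker alleles of that strain. Cells were grown with shaking at 30 °C in YP medium with 2% glucose, a rich medium, and were collected during mid-log growth, between an OD600 of 0.7 and 1, in portions of 1.5 OD600 units. From 300 ng of total RNA, a kit that primes at the poly(A) tail made biotin-labelled copies, which were hybridised to Affymetrix Yeast Genome 2.0 arrays.

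Budding yeast that meets plenty of sugar ferments it to ethanol even in air. Glucose is broken down by glycolysis, the pyruvate is turned into ethanol, and genes for respiration, for other carbon sources and for making glucose are held down by glucose repression. A fast-growing cell also puts much of its transcription into ribosomes. Haploid cells of each mating type express their own pheromone and receptor genes, and the genes of meiosis and sporulation are shut off during growth.

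The arrays carry probe sets for both S. cerevisiae and the fission yeast S. pombe. A probe set is a group of short probes for a transcript, and its deposited value is a log2 level. Of 10928 probe sets, 5581 stood for a single S. cerevisiae gene each and were ranked on every array, with rank 1 the highest. A percentile is the share of the ranking that lies below a gene, and unless an array is named it is the mean over the 6 arrays. The ranks are those of probe signals. Probe sets differ in how well they bind, and the signal flattens near the top, where ranks 1 to 100 spanned only 0.83 to 0.86 on the log2 scale. A rank is therefore not a number of transcripts. The experiments had been normalised apart, so their genes were compared by ranks and not by levels, and no p-value was computed.

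The background came from 4999 probe sets for S. pombe, a species not in these cultures. Their median log2 level was 3.87, 3.88 and 3.89 on the arrays of experiment A and below 4 on those of experiment B, whereas the median of the genes was 10.44, 10.46 and 10.46 in A and 10.58, 10.62 and 10.57 in B. The background line was drawn at their 95th percentile, which lay between 5.24 and 5.34. Most genes stood well clear of it. On all 6 arrays 5396 genes (96.7%) were above the line, and 101 genes (1.81%) were at or below it on all 6.

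**Figure D1:**
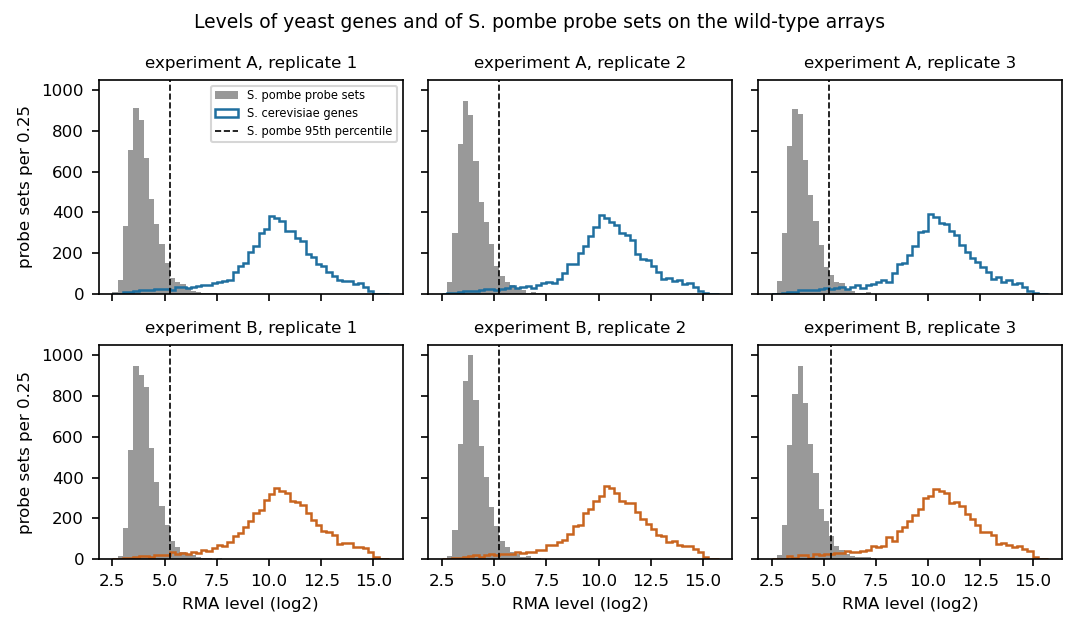
Histograms of the RMA level (log2, bins of 0.25) on each of the 6 wild-type arrays, with S. pombe probe sets in grey, S. cerevisiae genes as a coloured outline and the background line dashed. The genes centred near 10.5 and the S. pombe probe sets near 4 on every array, with a small overlap.

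Glycolysis and ethanol formation stood at the very top of the ranking. TDH3, a glyceraldehyde-3-phosphate dehydrogenase of glycolysis, was rank 1 on all 6 arrays, with log2 levels of 15.10, 15.12 and 15.12 in experiment A and 15.33, 15.32 and 15.35 in experiment B. GPM1, the phosphoglycerate mutase, ranked 3, 3 and 3 in A and 4, 2 and 3 in B. CDC19, the main pyruvate kinase, ranked 4, 5 and 5 in A and 3, 3 and 4 in B. These genes kept the same few places on every array. PGK1 (phosphoglycerate kinase) and ENO2 (enolase) followed at ranks 4 to 7, and FBA1 (aldolase) and TPI1 (triosephosphate isomerase) were also among the highest 20. PDC1 and ADH1, which turn pyruvate into acetaldehyde and acetaldehyde into ethanol, ranked 6 to 10 and 7 to 12.

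Of 16 measured glycolysis genes 12 were in the top 10% of all genes and none in the bottom 10%, each of which holds 10% of all genes by construction. The median percentile of the list was 97.9, against 49.8 for all genes. Its lowest members were genes for alternative enzymes. PYK2, a second pyruvate kinase, stood at 29.2, HXK1, a hexokinase, at 48.2, GLK1, a glucokinase, at 75.5 and TDH1, a further glyceraldehyde-3-phosphate dehydrogenase, at 85.0. The list of ethanol and glycerol production was split in the same manner, with 6 of 13 genes in the top 10% and a median of 83.8. GPP1, a glycerol phosphatase, ranked 49 to 68 and ALD6, an acetaldehyde dehydrogenase, stood at 95.9. PDC6, a minor pyruvate decarboxylase, was the lowest of that list at 7.07, followed by GPD2 at 12.5, ADH5 at 41.8 and PDC5 at 57.0.

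The cytosolic ribosome filled most of the remaining top places. Of the 100 genes of highest mean percentile 72 encoded cytosolic ribosomal proteins. Of 138 ribosomal protein genes listed, 121 were ranked, and of these 119 were in the top 10%. RPS21A ranked 11, 14 and 14 in experiment A and 5, 8 and 9 in experiment B. RPL10 ranked 13, 16 and 16 in A and 9, 7 and 8 in B. For both genes every array of B gave a higher place than any array of A, by a few ranks. With no minimum difference, the same held for 2005 of the 5581 genes. RPL30 (ranks 10 to 16), RPS31 (12 to 15), RPS21B (10 to 21), RPS12 (17 to 24), RPL40A (14 to 36) and RPL29 (15 to 31) also belonged to the highest 20. RPS31 and RPL40A encode ribosomal proteins that are made fused to ubiquitin.

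The median percentile of the ribosomal protein genes was 98.5. The 4 lowest were RPL18B at 91.6, RPL22B at 91.1, RPS9A at 89.5 and RPL15B at 69.1. Each of these has a close copy elsewhere in the genome. In 50 pairs of such copies with a probe set each, the copy named A was the higher on all 6 arrays in 24 pairs, the copy named B in 18, and the order was mixed in 8. The pair furthest apart was RPL15A at 98.1 and RPL15B at 69.1. Probes for such copies can bind both transcripts, so the levels within a pair are uncertain. Another probe set named for RPL18B, which matches several transcripts and was not ranked, lay above 99.4% to 99.7% of the genes.

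The highest 20 were completed by 3 genes of other roles. CCW12, a major protein of the cell wall, ranked 2, 2 and 2 in experiment A and 2, 5 and 2 in experiment B. TMA19, a protein bound to ribosomes, ranked 9 to 22, and YDR524C-B, an open reading frame known by its systematic name, ranked 11 to 18. Together the highest 20 held 7 genes of glycolysis, 2 of ethanol formation and 8 ribosomal protein genes. This holds for the ranked genes only. Some probe sets that match several transcripts were as high, such as that for RPL7A, above 99.7% to 99.8% of the genes.

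**Figure D2:**
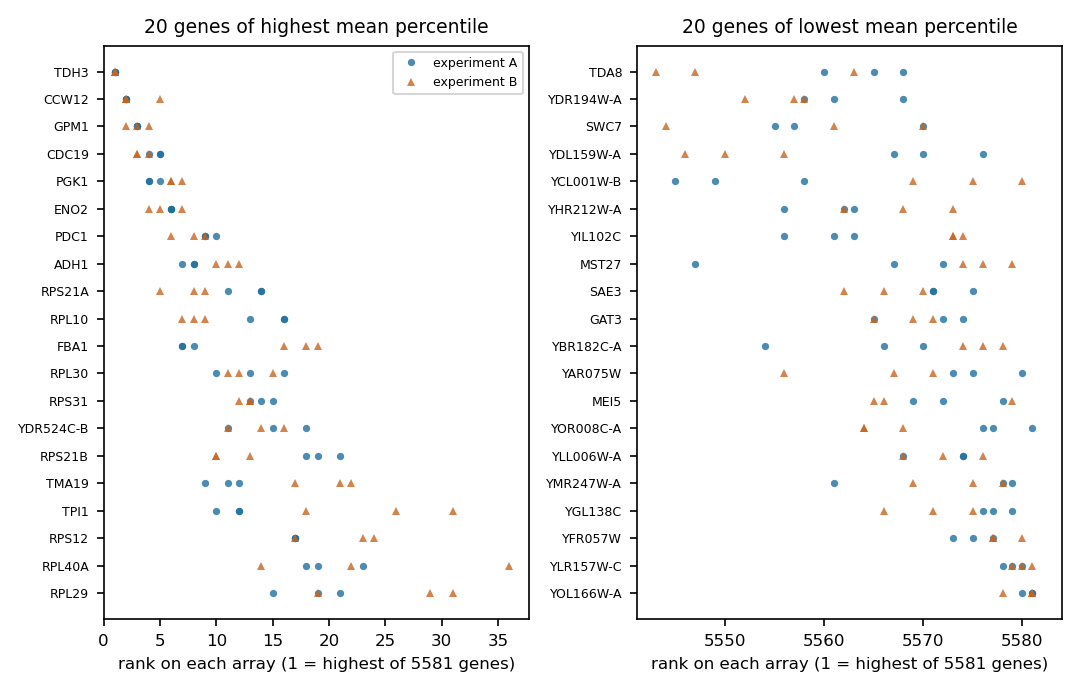
Rank on each array (1 is the highest of 5581 genes) of the 20 genes with the highest (left) and lowest (right) mean percentile, with circles for the 3 arrays of experiment A and triangles for the 3 of experiment B. TDH3 was first on every array, and the lowest gene, YOL166W-A, ranked 5578 to 5581.

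Other parts of the translation machinery were also high. Of 11 elongation factor genes listed, 7 were ranked. Probe sets matching several transcripts were left out. Among those, TEF2 lay above 99.96% to 99.98% of the genes and EFT2 above 99.1% to 99.3%. The 7 ranked genes had a median percentile of 97.9, with YEF3 (elongation factor 3) at ranks 33 to 60, EFB1 at ranks 51 to 66, HYP2 (eIF5A) at 98.7 and TEF4 at 97.9. HEF3, an alternative elongation factor 3, was the lowest at 10.5, and ANB1, an eIF5A that is known for its induction without oxygen, stood at 53.1. Of 20 cytosolic tRNA synthetase genes 16 were in the top 10%, from THS1 (threonine) at 97.0 and GUS1 (glutamate) at 96.8 down to WRS1 (tryptophan) at 86.9 and CRS1 (cysteine) at 84.7. Of 23 initiation factor genes 14 were in the top 10%, led by PAB1, the poly(A) binding protein, at 96.6 and SUI1 at 96.5. TIF4632, an eIF4G, was the lowest of these at 50.5. The 51 ribosome biogenesis factors stood lower than the ribosomal proteins, with a median of 84.6 and 10 genes in the top 10%. The nucleolar proteins NOP58 (96.6), NHP2 (96.6), NOP1 (95.7) and GAR1 (95.5) led them, and LTV1 (62.9), SSF1 (53.8) and SSF2 (46.4) were the lowest.

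Chaperones, cell wall proteins and histones came next. Of 29 chaperone genes, most of them cytosolic but with KAR2 of the endoplasmic reticulum and HSP60, HSP10 and SSC1 of the mitochondrion among them, 22 were in the top 10%, with SSA2 (an Hsp70) at ranks 29 to 42, SSB1 (a ribosome-bound Hsp70) at 34 to 48, CPR1 (cyclophilin) at 39 to 45 and HSC82 (an Hsp90) at 98.2. The heat-induced chaperones HSP42 (55.1), SSA4 (44.7), SSE2 (40.8) and HSP26 (25.1) were the lowest. Of 23 genes for cell wall and plasma membrane proteins 17 were in the top 10%. PMA1, the plasma membrane proton pump, stood at 98.3, CWP2 at 98.2 and SED1 at 97.6, and PIR3, a wall protein, was the lowest at 30.0. The 8 histone genes had a median of 95.1, with HTB1 (H2B) at 97.4 and HHT2 (H3) at 96.5. The linker histone HHO1 (78.7) and the variant histone HTZ1 (75) were the lowest of them. Yeast core histone messages have poly(A) tails, as the labelling required.

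Genes that build amino acids and sterols lay high although the medium was rich. The 52 genes of amino acid biosynthesis had a median percentile of 89.0, and 25 of them were in the top 10%. ILV5 (isoleucine and valine) stood at 97.7, ASN1 (asparagine) at 97.2, HOM2 (threonine and methionine) at 96.5 and HIS1 (histidine) at 96.2. LYS1, the last step of lysine synthesis, was the lowest at 22.8, below SER3 at 45.6 and ARG3 at 50.4. The 23 genes of ergosterol synthesis had a median of 88.8, with ERG11 at 96.8, ERG2 at 96.6 and ERG25 at 96.5, while the HMG-CoA reductases HMG1 and HMG2 stood at 79.1 and 70.3. None of the genes in either list was in the bottom 10%.

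From lowest to highest gene, the 32 proteasome genes lay in the narrowest band of the lists with at least 30 genes. They ran from RPN13, a ubiquitin receptor, at 79.9 to PRE2, a catalytic subunit, at 93.9, with a median of 88.1. Among 17 genes of the actin and tubulin cytoskeleton, ACT1 (actin) ranked 42 to 50, COF1 (cofilin) stood at 96.6 and TUB1 (alpha-tubulin) at 94.5, whereas TUB4 (gamma-tubulin) and MYO1 (a myosin of the division ring) were the lowest at 42.2 and 42.1.

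Genes of the mitochondrion lay above the middle for the most part. The 11 genes of the citric acid cycle had a median percentile of 83.9, from ACO1 (aconitase) at 94.1 and IDH2 (isocitrate dehydrogenase) at 92.9 down to LSC2 at 64.3 and KGD1 (ketoglutarate dehydrogenase) at 60.6. The 37 genes of ATP synthase and the respiratory chain had a median of 78.9. ATP1 (96.1) and ATP2 (91.0), the main subunits of the ATP synthase head, and QCR7 (92.2), of the cytochrome bc1 complex, were in the top 10%. SDH1 (succinate dehydrogenase) at 31.8, NDI1 (NADH dehydrogenase) at 23.5 and CYC7 (a minor cytochrome c) at 11.3 were the lowest. None of the 69 mitochondrial ribosomal protein genes was in the top or the bottom 10%. Their median was 58.8, and they ran from MRP8 (79.4) and MRPS12 (79.3) to RSM25 (26.8) and RSM22 (22.3).

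Genes of the ubiquitin and SUMO machinery that the study is about were spread widely, with a median percentile of 58.2 over 23 genes. CDC48, the segregase that pulls ubiquitylated proteins away, stood at 95.6, the ubiquitin conjugating enzyme UBC4 at 95.3, SMT3, which encodes SUMO, at 93.5 and UBA1, the ubiquitin activating enzyme, at 89.1. The SUMO ligases SIZ1 (12.2), NFI1 (9.37) and MMS21 (4.0) were the lowest, and SLX8, a subunit of the SUMO-targeted ubiquitin ligase, stood at 15.1. EUC1 itself was measured above the background line on all 6 arrays. Its percentile was 19.4, 20.6 and 20.8 in experiment A and 21.1, 21.5 and 20.6 in experiment B, so that the groups overlapped.

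Regulators of transcription and of the cell cycle sat mostly below the middle. The 54 transcription regulators had a median percentile of 37.4, and GCN4, the activator of amino acid synthesis genes, was the only one in the top 10%, at 97.7. HAP1 (heme response) followed at 77.9 and RPN4 (proteasome genes) at 75.4. The lowest were ADR1 (13.8), CAT8 (4.82) and SIP4 (4.52), activators for growth without glucose, and DAL80 (2.45), a repressor of nitrogen catabolism genes. GCN4 is known to be controlled at translation, and its high place is a level of its transcript only. The 36 genes of RNA polymerase II and Mediator had a median of 55.9, and the polymerase subunits RPB8 (94.5) and RPO26 (93.1) were far above the Mediator genes SSN2 (19.6), SRB8 (17.4), SSN8 (11.0) and NUT2 (8.25).

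The 29 cyclin and cell cycle kinase genes had a median of 36.2, with CLB1 (a mitotic cyclin) highest at 68.0 and WHI5 (an inhibitor of cell cycle entry) lowest at 8.73. The 35 kinetochore and spindle pole genes had a median of 25.3. SKP1, which also serves in ubiquitin ligases, stood out among them at 81.9, and SPC24, of the outer kinetochore, was the lowest at 3.97. The 30 autophagy genes had a median of 20.5, from ATG27 at 83.5 to ATG16 at 2.63. The 27 genes of peroxisome biogenesis had a median of 35.7, with PEX19 highest at 64.0 and PEX18 lowest at 2.22.

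Genes of nutrient uptake were split within each list. PHO84, the high-affinity phosphate transporter, stood at 95.6 and VTC1, of polyphosphate synthesis, at 95.3, while PHO89 (11.1) and PHM6 (8.57) were among the lowest of 16 genes of phosphate and zinc starvation. Among 27 iron uptake genes the ferric reductase gene FRE1 stood at 91.1 and FET3, the oxidase of the high-affinity system, at 89.0. FRE2 (9.70) and FRE5 (2.28), further reductase genes, were the lowest. Of 22 genes for the use of poorer nitrogen sources, CHA1 (serine and threonine breakdown) at 89.7 and CAR1 (arginase) at 86.2 stood highest, and the allantoin genes DAL3 (6.50) and DAL1 (6.38) lowest. The list had a median of 25.5. Of 15 thiamine and biotin genes, PHO3, a phosphatase known for its repression by thiamine, was the highest at 87.0 and THI4 (thiamine synthesis) stood at 11.8.

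Hexose transporters had both a few of the higher and several of the lowest genes. HXT3, a low-affinity glucose transporter, stood at 96.9, HXT2 at 90.2 and HXT1, also of low affinity, at 87.5. Of 20 genes in this list only 14 were ranked, so it is part of the family, and the glucose sensor genes RGT2 and SNF3 are among them. Of the 14, 8 were in the bottom 10%, against 10% of all genes, and 4 were at or below the background line on all 6 arrays, against 1.81%. The lowest were HXT8 (1.44), HXT10 (1.38), HXT13 (1.16) and HXT14 (1.05).

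Glucose-repressed genes of carbon metabolism lay near the bottom. The 34 genes had a median percentile of 10.9, and 16 were in the bottom 10%. FBP1, of glucose synthesis, stood at 2.18, 2.18 and 1.96 in experiment A and at 4.72, 4.74 and 4.63 in experiment B, and was at or below the background line on 3 arrays. POX1 (2.34) and POT1 (1.83), of fatty acid breakdown, were the lowest, and SFC1, a mitochondrial carrier, stood at 3.98. The values of the classical markers, named as such and not by their rank, were 11.2 for PCK1, 15.6 for ICL1, 13.2 for ADH2 and 10.6 for GAL1. Not all of the list was low, since MDH2 stood at 89.4, CIT2 at 85.3, MDH3 at 82.6 and ALD4 at 68.7.

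Sporulation genes were the lowest list. The 60 meiosis and sporulation genes had a median percentile of 5.95, with 45 in the bottom 10% and 10 at or below the background line on all 6 arrays. SAE3 and MEI5, which help load a meiotic recombinase, were among the lowest 20 genes, and HOP2 (0.82), MEK1 (0.91) and IME4 (0.95) were next to SAE3 at the foot of the list. SPO73 was the highest at 33.4. IME1 and NDT80, the switches into and within meiosis, stood at 14.7 and 6.37.

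The genes specific to the mating types were far apart. The 7 genes specific to a cells had a median percentile of 79.9, and the 4 specific to alpha cells 6.62. MFA2, an a-factor gene, stood at 93.9, STE2, the alpha-factor receptor gene, at 91.0, STE6 at 80.0 and MFA1 at 79.9, whereas ASG7 was low at 13.7. Of the alpha genes, MF(ALPHA)1, the main alpha-factor gene, was at or below the background line on all 6 arrays at 0.87. MF(ALPHA)2 (5.06), STE3 (8.17) and SAG1 (22.8) were above it on all 6. Of 21 genes of the haploid pheromone response STE20 (79.1), STE4 (78.9) and GPA1 (71.1), of the signalling chain, were highest. PRM6 (1.66) and FIG1 (3.11), which act in mating cells, were lowest.

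Genes of general stress and storage carbohydrates were spread over the range with a median of 35.3 in 30 genes. HOR7 (96.6), YGP1 (91.3), HSP104 (87.0) and SOD2 (85.2) were the highest, and ALD3 (7.95), GRE1 (6.74) and SIP18 (5.69) the lowest. Of 7 genes often used as markers in laboratory strains, MET17 (88.7), ADE2 (87.5) and LEU2 (85.6) were high, URA3 stood at 14.2 and HIS3 at 2.60. HIS3 was at or below the background line on 3 arrays.

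**Figure D3:**
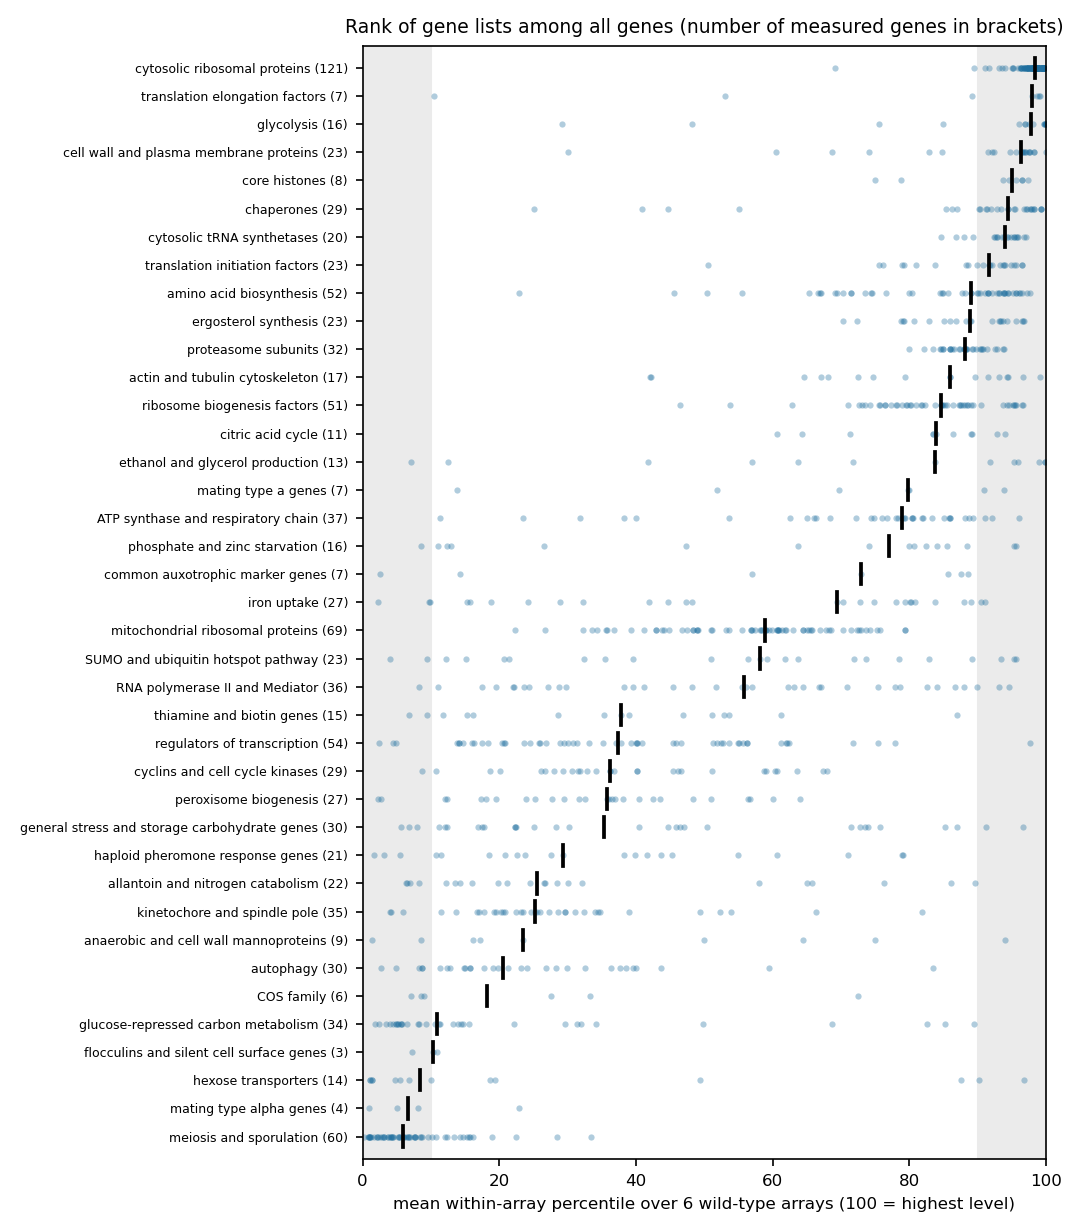
Mean within-array percentile over the 6 wild-type arrays of each gene (dots) in 39 lists ordered by their median (black bar), with the number of measured genes in brackets and the top and bottom 10% shaded. Cytosolic ribosomal proteins (98.5), elongation factors and glycolysis (97.9 each) had the highest medians, and meiosis and sporulation (5.95) the lowest.

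The foot of the ranking, taken as the lowest 20 genes, was made up mostly of genes without a name of their own. Of the lowest 20 genes 14 had a systematic name only. YOL166W-A was rank 5581, 5580 and 5581 in experiment A and 5578, 5581 and 5581 in experiment B, with log2 levels of 2.98, 2.97 and 2.97 and of 3.16, 2.91 and 2.99. YLR157W-C ranked 5578 to 5581 and YFR057W 5573 to 5580. All of these levels lay below the median of the S. pombe probe sets. The named genes were MEI5, SAE3, GAT3 (a GATA-type zinc finger protein), MST27 (a membrane protein of vesicle formation), SWC7 (a subunit of a chromatin remodelling complex) and TDA8. The remaining genes were YGL138C, YMR247W-A, YLL006W-A, YOR008C-A, YAR075W, YBR182C-A, YIL102C, YHR212W-A, YCL001W-B, YDL159W-A and YDR194W-A.

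Of 483 genes with a systematic name only, 194 (40.2%) were in the bottom 10% and 8 in the top 10%. They made up 53 of the 101 genes at or below the background line on all 6 arrays. Of the bottom 10%, 373 genes were above the line on all 6 arrays. The genes nearest the line by mean level were RGI2, YFL051C and YOR186W just above it, by 0.0036 to 0.03 on the log2 scale. YBR219C, HIS3 and YIL046W-A lay just below it, by -0.0036 to -0.02.

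Genes near chromosome ends were low. Of 198 genes among the outermost 10 protein-coding genes of each arm, 83 (41.9%) were in the bottom 10%, against 8.82% of the other 5383 genes, and their median percentile was 14.3 against 50.8. Transcription is known to be silenced close to yeast telomeres, and the ends also hold many genes of repeated families, which were not separated here. Gene length was set beside rank. Over the 5564 genes with a length in the RefSeq table the Spearman correlation with percentile was -0.02, given as a description across genes. The median length was 1230 bp for all of them, 977 bp for the top 10% and 1152 bp for the top 10% without ribosomal proteins. It was 889.5 bp for the bottom 10% and 463.5 bp for the genes at or below the line.

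Paired genes for alternative forms of an enzyme, carrier or factor were ranked against each other. The form written first was meant as the main one in growth on glucose, and was the higher on all 6 arrays in 15 of 16 pairs. The pairs were chosen after the values were seen, so this count is a description only. Other forms were left unpaired, such as ADH3 at 95.4 and SSA1 at 94.4. ENO2 and ENO1, enolases, stood at percentiles of 99.9 and 96.9. CYC1, the main cytochrome c gene, stood at 66.4 and CYC7 at 11.3. COX5A and COX5B, alternative subunits of cytochrome c oxidase, stood at 81.8 and 38.3, and GDH1 and GDH3, glutamate dehydrogenases, at 96.0 and 17.6. The exception was GPD2, a glycerol-3-phosphate dehydrogenase written as the first of its pair, at 12.5 against 83.8 for GPD1.

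The labels give the wild-type groups of both experiments the same strain and growth, so their ranks were set side by side. By membership, the ends of the ranking were largely the same genes. Of the 558 genes in the top 10% of each group 507 (90.9%) were shared, and of the bottom 10% 508 (91.0%). The median percentiles of the 39 lists came in nearly the same order, with a Spearman correlation of 0.99 across lists. Over all genes the Spearman correlation was 0.998 to 0.999 between arrays within A and also within B, and 0.973 to 0.978 between an array of A and an array of B. These correlations are across genes, which are not independent replicates.

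Differences in rank were then counted gene by gene. A gene was called set apart where all 3 percentiles in one group lay above all 3 in the other and the group means were at least 5 points apart. By this rule 842 genes (15.1%) were higher in experiment B and 793 (14.2%) higher in experiment A. Between an array of A and an array of B 28.6% to 32.8% of the genes were at least 5 points apart, against 0.32% to 2.58% between arrays of the same group. The distance between experiments was therefore larger than the spread between replicates, but it cannot be told apart from the separate normalisation. Where these genes lay depended on the scale. In points of percentile, which weigh the middle most because levels are crowded there, the genes set apart were 0.36% of the top 10%, 52.0% of group 6 of 10 from the top and 1.25% of the bottom 10%. When each rank was given the mean level of that rank over the 6 arrays and a difference of at least 0.5 on the log2 scale was asked for, the order was different. Then 17 genes of the top 10% were apart, 60 and 67 in groups 5 and 6, 102 in group 9 and 177 in the bottom 10%, each group holding about 558 genes.

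Control probe sets, which are not genes of the ranking, also moved with the experiment. With no minimum difference, 2027 of the 5581 genes were higher on every array of experiment A and 2005 on every array of experiment B, 72.2% together. Counts of controls are to be read beside that share. Of 17 probe sets for S. cerevisiae ribosomal RNA, 14 stood higher among the genes on every array of experiment A and 2 on every array of experiment B. Their median place was above 96.1%, 95.6% and 94.9% of the genes in A, and above 69.7%, 76.7% and 70.5% in B. The 3 probe sets for BioB, a bacterial control transcript usually added to the hybridisation mixture, had a median place of 28.3%, 28.6% and 36.6% in A and 4.87%, 4.64% and 4.52% in B. All 12 probe sets for the bacterial control transcripts Dap, Lys, Phe and Thr, usually added to the RNA before labelling, were higher in A, with a median place of 9.16% to 10.2% in A and 5.28% to 6.09% in B. BioC and BioD are hybridisation controls like BioB. The median place of BioC was 56.9% to 64.6% in A and 32.7% to 33.2% in B, and that of BioD 82.9% to 85.8% and 78.7% to 79.7%. The median place of the 3 controls matching TDH1 alone, a yeast gene of the ranking, was 90.3% to 90.7% in A and 53.1% to 58.7% in B, whereas another control named for TDH1, which matches several transcripts, lay above 99.9% of the genes in A and 99.8% in B. The median place of the 6 actin controls was 97.5% to 97.7% in A and 97.1% to 97.2% in B. Of these 6, 4 were higher on every array of A and 0 on every array of B. The median place of the controls for Cre, another added transcript, was 95.8% to 96.6% over the 6 arrays.

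Labelling starts at the poly(A) tail, and the difference between the 5′ and the 3′ end of a message was read from 8 control genes. The mean difference was closer to 0 in experiment B for 7 of them, but the arrays of A and B did not overlap for only 3 of these 7. Those 3 include URA3, whose 5′ probe set was not above the background line on any array of A. For ACT1 the 5′ minus the 3′ probe set was -0.63 to -0.56 on the log2 scale on the arrays of A and -0.60 to -0.51 on those of B, so that the groups overlapped. For EAF5 it was -1.35 to -1.21 in A and -1.13 to -0.96 in B, and for RIP1 -0.63 to -0.60 and -0.55 to -0.39, without overlap. TDH1 went the other way, at -0.63 to -0.54 in A and -1.06 to -0.93 in B. Each difference was taken within an array, but the values of A and B come from separate normalisations, which limits the comparison. The part of these differences in the ranks of the genes was not tested.

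**Figure D4:**
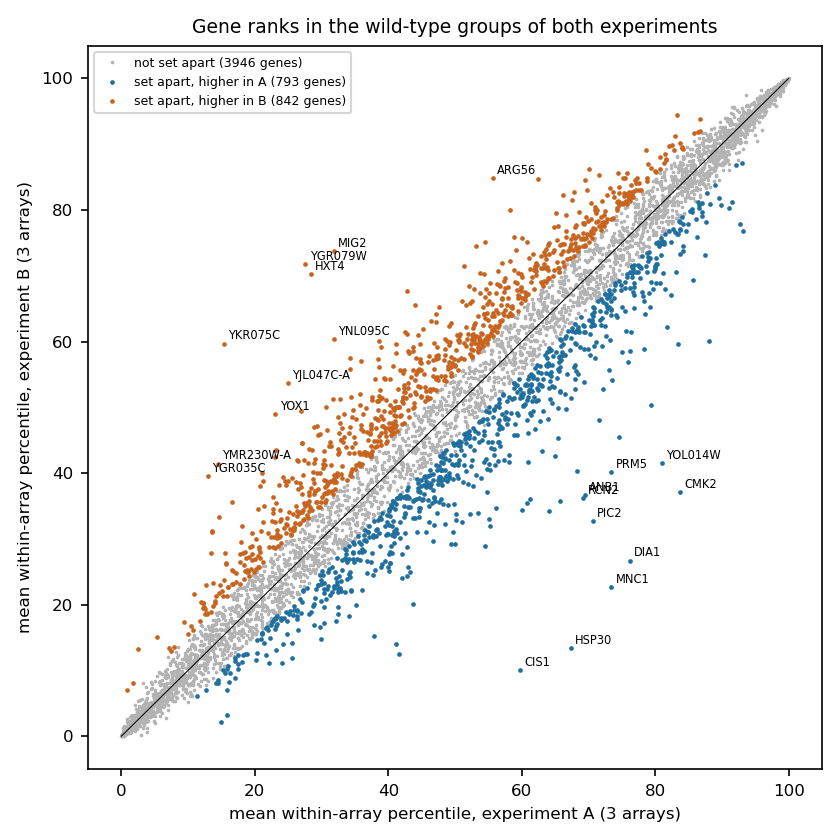
Mean within-array percentile of each of 5581 genes in the wild-type arrays of experiment A (x axis, 3 arrays) and experiment B (y axis, 3 arrays), with the genes set apart in colour, the 10 most distant in each direction named and equality as a line. In percentile points the genes closed in on the line at both ends, and 793 genes were higher in A and 842 in B.

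Among the genes higher in experiment A, HSP30 was the furthest apart. HSP30, a stress protein of the plasma membrane, stood at 58.5, 75.1 and 68.6 in A and at 13.2, 14.1 and 12.9 in B, a difference of 54.0 points. CMK2, a calmodulin-dependent protein kinase, stood at 81.4, 85.2 and 84.6 in A and at 36.9, 36.5 and 37.9 in B. RCN2, a regulator of the phosphatase calcineurin, stood at 67.2, 70.7 and 69.8 in A and at 34.9, 38.1 and 35.5 in B. For each the groups were far from overlapping, and HSP30 varied most between the arrays of A. MNC1, CIS1 and DIA1 were 50.8, 49.7 and 49.6 points higher in A. YOL014W was higher by 39.5 points, PIC2, a mitochondrial carrier, by 37.9, PRM5, a gene of the cell wall and pheromone responses, by 33.3 and ANB1 by 32.7.

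Among the genes higher in experiment B were some genes of glucose uptake and glucose response. HXT4, a glucose transporter, stood at 26.3, 30.6 and 28.2 in A and at 70.0, 71.6 and 69.2 in B, 41.9 points higher. MIG2, a glucose-induced repressor, stood at 35.4, 29.6 and 30.5 in A and at 72.5, 74.2 and 74.6 in B. YKR075C stood at 18.1, 14.2 and 13.7 in A and at 59.8, 59.8 and 59.5 in B, the furthest apart in this direction at 44.3 points. In all of these the groups lay far apart and the replicates close together. YGR079W was 44.2 points higher in B, ARG56, of arginine synthesis, 29.2, YJL047C-A 28.7, YNL095C 28.4, YMR230W-A 27.0, YGR035C 26.6 and YOX1, a cell cycle repressor, 25.9. In all, 24 genes were at least 20 points higher in B and 33 in A.

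**Figure D5:**
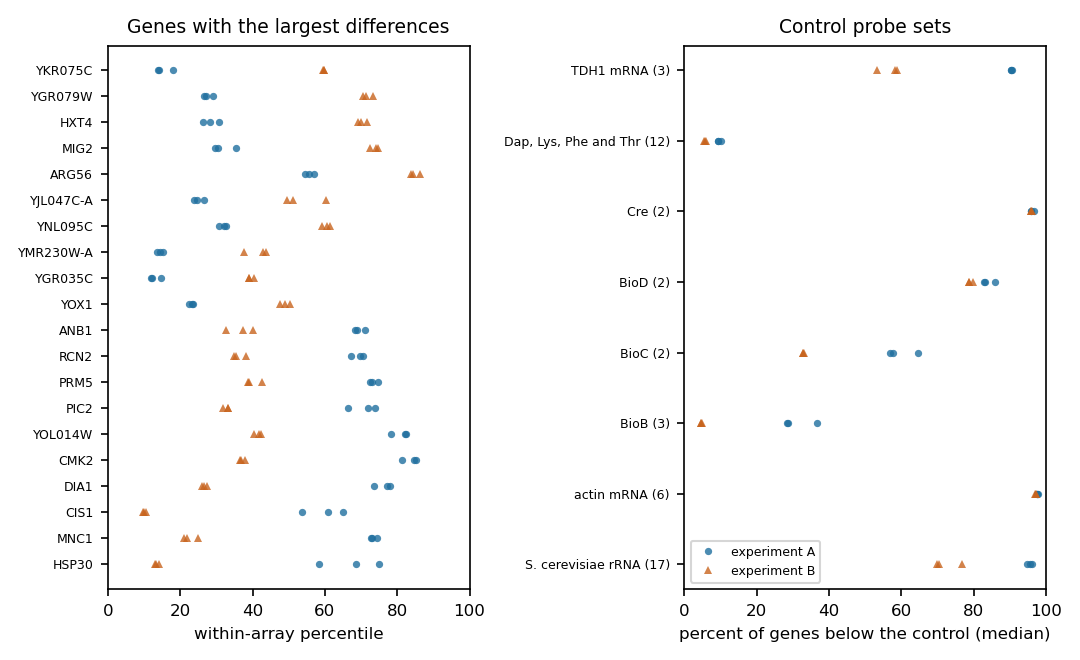
Left, within-array percentile on each array of the 10 genes furthest apart in each direction, with circles for experiment A and triangles for experiment B. Right, the percent of genes below the median control probe set of each kind on each array (number of probe sets in brackets), where ribosomal RNA, BioB and the TDH1 controls differed by experiment and actin and Cre did not by more than 1 point.

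Lists differ in where they lie, so each count is given beside the share of all genes set apart in that direction in the same groups (10 from top to bottom) of the ranking, weighted by the list's members. This share is a description and not a test. Of 69 mitochondrial ribosomal protein genes 28 (40.6%) were higher in A, against 21.9% at the same places, and 5 (7.25%) in B, against 23.4%. The list's median percentile was 61.1 in A and 55.2 in B. MRP8, the highest of the list, stood at 84.2 on average in A and at 74.6 in B, and MRPS16 at 80.0 and 71.3. Of the 37 genes of ATP synthase and the respiratory chain, 13 (35.1%) were higher in B, against 14.4% at the same places, and 2 in A. SDH1 stood at 24.2 in A and 39.3 in B, and COX5B went the other way, at 45.7 and 31.0. Among 11 citric acid cycle genes 4 (36.4%) were higher in A, against 8.68%, and 1, KGD1, in B.

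Of 29 cyclin and cell cycle kinase genes 12 (41.4%) were higher in B, against 20.6% at the same places, and 3 in A. Of 54 transcription regulators 17 (31.5%) were higher in B, against 18.4%, and 6 in A. A list of 26 genes expressed as cells pass from G1 to S phase, chosen after the values were seen, had 15 (57.7%) higher in B, against 20.8%, and 0 in A. It shares the cyclin genes CLB5 (23.0 in A and 42.5 in B), CLB6 (16.6 and 35.6) and CLN1 (32.8 and 47.5) with the cyclin list. RNR1, POL30 and POL1, of DNA synthesis, were not among them. Of 16 glucose-sensing genes, also chosen afterwards, 8 (50%) were higher in B, against 16.8%, and 1, PFK26, in A. The G1 to S and glucose-sensing lists were picked with the differences known. They hold YOX1, HXT4, MIG2 and YKR075C, named above as furthest apart. How much of their excess was built in cannot be told, and no conclusion is drawn from it. MIG1, the main glucose repressor, stood at 54.4 in A and 70.3 in B, whereas HXK2 (97.6 and 97.5) and SUC2 (49.4 and 50.2) were level.

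Of 11 calcineurin genes chosen afterwards 5 (45.5%) were higher in A, against 19.2% at the same places, and 1 in B. CMK2, RCN2 and DIA1, named above as furthest apart, are among them. How much of the excess was built in cannot be told, and no conclusion is drawn from it. Of 19 genes of cell wall integrity, also chosen afterwards, 6 (31.6%) were higher in A, against 15.9%, and 3 in B. That list holds PRM5, named above, so the same limit applies. SLT2, the kinase of the cell wall pathway, stood at 85.6 in A and 69.4 in B and RLM1, its transcription factor, at 50.0 and 29.2. General stress genes went both ways, with 9 of 30 (30%) higher in A, against 13.3%, and 5 (16.7%) in B, against 14.1%. HSP12 stood at 62.4 in A and 84.7 in B and DDR2 at 13.6 and 31.0, opposite to HSP30. Of the 121 cytosolic ribosomal protein genes 1 was set apart (0.83%), close to the 0.36% of the top 10%, in which nearly all of them lie. Of 16 glycolysis genes 4 were set apart, all higher in A, where genes at the same places gave 4.18%. Among those 4 was TDH1, at 92.9, 93.3 and 93.3 in A and 75.6, 77.4 and 77.5 in B. The marker gene LEU2 stood at 90, 91.6 and 91.5 in A and at 80.5, 80.0 and 80.3 in B.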

How the data were processed

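The values the authors deposited are log2 levels from RMA, a method that subtracts background, gives all arrays of a run the same distribution and combines the probes of each probe set. RMA and limma are the tools in the submitters' processing notes, with versions not given in the sources used here. No exact value was shared between arrays of experiments A and B. Between wild-type arrays 182 to 188 values were shared within A and 54 to 62 within B. This is how separate RMA runs would look. Levels of the ranked genes were not compared across the runs. The 5′ minus 3′ differences of control genes and the URA3 control levels were set side by side. The authors also deposited tables of log2 fold changes and p-values for each mutant. Only their gene names were used.

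Probe sets matching several transcripts (132) were left out, as were 166 controls and 47 probe sets without a gene name. The other 3 were not used here. Symbols came from the RefSeq table of assembly R64, which held 5564 of the 5581 genes. Of these genes 5098 had a symbol. Percentiles were 100 times (rank from the lowest minus 0.5) over 5581, computed with Python 3.11.15, pandas 2.3.3 and numpy 2.4.6, and the rank calls were tested on simulated data. With 3 arrays per group, the number of arrays limits the precision. Whether the triplicates came from separate cultures is stated only as biological replication.

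The rule for naming genes took the 20 highest and 20 lowest, up to 4 of the highest and 4 of the lowest members of each list, up to 10 genes furthest apart in each direction between experiments, EUC1, the highest S. pombe probe sets and 3 genes on each side of the background line. Other genes were named after their values were seen. The members and lists were chosen with earlier results of these data known, and 4 lists and the enzyme pairs were added after seeing the values. Alternatives were other background lines, other minimum differences, other shares of top genes, probe sets with several matches kept, and leaving out each replicate.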

Additional observations from a re-analysis of the deposited data

Results flagged for a closer look

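These signals lay outside the ranked genes, and no cause was tested for any of them. Of the 132 S. cerevisiae probe sets that match several transcripts, 121 were above the background line on all 6 arrays, with TEF2, an elongation factor gene, the highest at a mean log2 level of 15.1. Of the 47 probe sets without a gene name, 10 were above the line on all 6 arrays.

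The highest S. pombe probe set, SPBC685.06, had a mean log2 level of 10.1 over the 6 arrays, above 33.7% to 43.3% of the genes. SPBC354.12 followed at 8.38 and SPAC664.05 at 7.71.

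Of the 17 ribosomal RNA control probe sets, 14 stood higher among the genes on every array of experiment A. With no minimum difference, so did 2027 of the 5581 genes.

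The 5′ control probe set for URA3 was above the background line on 3 arrays of experiment B and on 0 of A. Its log2 level was 5.20, 5.10 and 4.90 in A and 7.51, 7.25 and 7.16 in B. Within an array the 5′ minus the 3′ URA3 probe set was -2.54, -2.84 and -2.94 on the log2 scale in A and -0.32, -0.37 and -0.51 in B, while the ranked URA3 probe set stood at percentiles of 12.9 to 13.6 in A and 14.8 to 15.3 in B. The levels of A and B come from separate normalisations. Both groups carry the same strain label.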

How the results depend on the processing

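With the background line moved up to the S. pombe 99th percentile, the genes at or below it on all arrays of a group rose from 135 to 234 in experiment A and from 114 to 210 in B. At the 90th percentile they were 99 and 89. The 1635 genes set apart between experiments became 499 (258 higher in B and 241 in A) with at least 10 points and 4032 with no minimum. When each rank was given the mean level of that rank, an alternative added after seeing the data, 748 genes were at least 0.5 log2 units apart, of which 529 were also set apart by 5 points. The shared genes were 258 of 279 for the top twentieth and 87 of 100 for the top 100, fewer because fewer were taken. Leaving out each replicate gave 139 to 146 genes at or below the line in A, 116 to 121 in B, 1599 to 1680 set apart and 505 to 509 shared in the top 10%. Keeping probe sets with several matches moved none of these counts by more than 1.5 times. Of the 39 list medians, 22 moved by less than the SD of the list median over the 6 arrays with arrays of A alone, 28 with B alone and 27 with ranks among genes above the line, where the largest rise was 11.0 points. No paired analysis was possible because no test was run into which a replicate block could enter. An alternative on promoter motifs was not run.

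Ranks near the top rest on small differences of signal, and ranks below the background line have no sure order.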
